A study of Mus musculus with 18 samples.

Results

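The 6 genes described here, whose products serve steroid or hormone pathways, or are secreted or matrix proteins, were followed through the RNA-seq and GCLiPP data of cultured mouse T cells: Cyp11a1, Akr1c18, Nts, Pth, Moxd1 and Adamtsl3. They are 6 of the 43432 genes in the expression table, and 10 of the 27729 GCLiPP peaks carry the name of one of them. The genes were selected on a reading of these same data, evidently chosen by their high level in Th2 cells against CD8 T cells, so that contrast is described below without a test and supports nothing. The tests concern stimulation and actinomycin D within Th2 cells.

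T cells came from C57BL/6 mice, with 3 animals pooled according to the methods, and were cultured for 5 days after activation by plate-bound antibodies to CD3 and CD28, from which the methods move them to uncoated dishes partway. Th2 cells (CD4 T cells grown with IL-4, IL-2 and antibody to IFN-γ) and CD8 T cells (grown with IL-12 and IL-2) were then stimulated for 4 h with PMA and ionomycin, a drug pair that imitates T cell receptor signalling, or left resting. For RNA-seq, each of these states was also taken with actinomycin D, an inhibitor of RNA synthesis, which gave 8 libraries, 1 per combination: stimulated Th2 with actinomycin D, resting Th2 with actinomycin D, stimulated Th2, resting Th2, and the same 4 states of CD8 T cells. GCLiPP, which sequences RNA fragments cross-linked by ultraviolet light (254 nm, 8000 mJ) to any protein, covered 6 Th2 and 4 CD8 libraries without the drug, and its peaks were called on all of them pooled. The sample records list the same ultraviolet treatment for the RNA-seq libraries. In the methods, actinomycin D was added after the 4 h of stimulation, in a time course, without saying which time these libraries come from. Drug-treated cells may therefore have been harvested later than untreated ones. The methods also describe another lysis reagent for drug-treated cells, so the drug, any added time and the preparation cannot be told apart.

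Steroid hormones are made from cholesterol. Star carries cholesterol into mitochondria, where Cyp11a1 cuts off its side chain to give pregnenolone, the first and rate-limiting step, with electrons supplied by Fdxr and Fdx1. Hsd3b enzymes turn pregnenolone into progesterone, and Akr1c18 reduces progesterone to a much less active steroid, a step best known from the ovary at the end of pregnancy. Nts encodes the precursor of neurotensin, a peptide of gut and brain, and Pth the precursor of parathyroid hormone, which raises blood calcium. Both precursors are cut by prohormone convertases. Moxd1 encodes a relative of the copper enzyme dopamine beta-hydroxylase, and Adamtsl3 a secreted matrix protein related to the ADAMTS proteases that lacks their catalytic domain.

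The promoter windows of 3 members are shown because the members share a cell type and these windows held matches to factors that act in Th2 cells. Moxd1, whose window held an NFAT match, is not shown. Sequences are the 250 bases before the RefSeq start site (GRCm38.p6), 5′ to 3′ on the gene's strand. Capitals mark matches on either strand to the motifs AGATAA and TGATAA of GATA factors, GGAAAA of NFAT, TGANTCA of AP-1, AAGGTCA of NR5A factors, to the TATA box letters TATAAA, or to the STAT6 motif, which is TTC and GAA with 4 free bases between.
Nts, minus strand, chr10:102490419-102490668: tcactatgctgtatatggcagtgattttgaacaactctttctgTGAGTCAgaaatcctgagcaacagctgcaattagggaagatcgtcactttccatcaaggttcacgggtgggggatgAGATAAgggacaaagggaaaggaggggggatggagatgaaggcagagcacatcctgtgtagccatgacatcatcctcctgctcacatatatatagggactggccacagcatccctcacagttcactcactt
Pth, minus strand, chr7:113388574-113388823: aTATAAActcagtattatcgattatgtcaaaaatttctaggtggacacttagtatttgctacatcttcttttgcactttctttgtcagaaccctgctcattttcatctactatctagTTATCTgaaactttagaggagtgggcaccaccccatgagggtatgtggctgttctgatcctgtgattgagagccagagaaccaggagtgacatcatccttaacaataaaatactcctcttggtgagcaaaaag
Cyp11a1, plus strand, chr9:58014702-58014951: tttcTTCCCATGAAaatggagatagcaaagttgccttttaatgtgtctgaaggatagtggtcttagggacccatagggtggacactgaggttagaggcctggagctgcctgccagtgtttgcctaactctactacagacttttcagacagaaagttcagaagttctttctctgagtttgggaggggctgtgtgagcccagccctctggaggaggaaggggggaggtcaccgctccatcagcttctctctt

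AGATAA was found in the Nts window, 131 bases before the start site, and on the opposite strand (reading TTATCT) in the Pth window, 133 bases before it. Of 32851 RefSeq promoter windows of 300 bases, 11.2% held this motif. The Nts window also held an AP-1 match (7.81% of windows), the Pth window TATAAA 249 bases before the start (13.6% of windows), and the Cyp11a1 window shown a STAT6 match (6.95% of windows). Moxd1 held one NFAT match (23.4% of windows). No match was found to TGATAA (9.05% of windows) or AAGGTCA (4.72% of windows) in any member, and none of the motifs was found in the windows of Akr1c18 and Adamtsl3 or at a second, upstream Cyp11a1 start site. The windows counted here include the 50 bases after the start. These are matches of letters, not sites.

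Library depth was 24154849 to 31042504 gene reads. Values are the authors' read counts per gene divided by 1 size factor per library (normalised reads), and they are not divided by gene length. Of the markers used to check the labels, Cd4 stood at 20061 to 39568 normalised reads in Th2 libraries against 25.9 to 281 in CD8 libraries, and Gata3, the Th2 master regulator, at 2280.0 to 10567 against 22.6 to 104. Cd8a was not absent from Th2 libraries, with 1331 to 2401 against 10516 to 15750 in CD8 libraries, which is 13.4% of the CD8 mean. In the CD8 identity list 12 genes passed the minimum level, and 7 of them, Cd8a included, lay lower in every Th2 library. Gzma went the other way, with 17761 to 30403 in Th2 against 2845 to 5607 in CD8 libraries. Prf1, Ifng, Eomes and Tbx21 overlapped between the cell types. Il1rl1, a receptor listed as a Th2 marker, went against the label with 50.6 to 113 in Th2 and 2325 to 3563 in CD8 libraries. Summed over 6 B cell markers the levels were 814 to 955 in Th2 and 145 to 240.4 in CD8 libraries, and 5 of the 6 passed the minimum level and had no overlap between the cell types. Summed over 13 mast cell and basophil markers the levels were 78.6 to 127 in Th2 and 89.6 to 333 in CD8 libraries. Kit made up most of the CD8 sums, with 50.2 to 303 in CD8 against 1.90 to 9.06 in Th2 libraries, so the sums mainly compare Kit. Mcpt1, Mcpt2, Mcpt4, Tpsab1 and Ms4a2 were at most 2.27 in Th2 libraries, whereas Hdc was at 38.1 to 70.2 in Th2 against 14.9 to 21.7 in CD8 libraries and Cpa3 reached 35.9 in Th2. Summed over 7 myeloid markers the levels were 159.7 to 479 in Th2 and 114 to 459.9 in CD8 libraries, and Lyz2 was at 22.7 to 132 in Th2 against 0 to 2.98 in CD8 libraries. Of 15 endocrine gland genes, 5 were at 0 in every library, among them Cyp11b1 and Mc2r, while Tg had 6697 to 10681 in Th2 against 802 to 1472 in CD8 libraries, the inhibin gene Inha 32.7 to 121 against 5.93 to 56.6 and Syp 30.6 to 42.8 against 7.11 to 17.7. The part of other cells in the member levels was not tested.

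Cyp11a1 was expressed at high and even levels in Th2 cells. It had 13076 normalised reads in stimulated and 15949 in resting Th2 cells with actinomycin D, and 14879 in stimulated and 13817 in resting Th2 cells without it. The matching CD8 libraries held 41.7, 35.4, 53.3 and 23.8. All Th2 libraries lay far above all CD8 libraries, and the mean was 14430.0 ± 1254 in Th2 against 38.6 ± 12.3 in CD8 T cells (SD, n = 4 libraries each, 1 per condition). In bulk RNA, fewer expressing cells and less RNA per cell cannot be told apart. The gene lies on chr9:58006411-58027023 (mm10, plus strand) and overlaps the noncoding RNA gene Gm17322 on the same strand, which had 128, 141, 871 and 455 normalised reads in the Th2 libraries and 1.99, 4.92, 655 and 4.15 in the CD8 libraries in the same order of conditions. Of the 50-base words of Cyp11a1 transcripts, 2.06% also occurred in another gene, mostly Gm17322, so the split of reads between them is uncertain.

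Akr1c18 (chr13:4132615-4150654, minus strand) had 13588 normalised reads in stimulated and 13719 in resting Th2 cells with actinomycin D, and 12082 and 8741 without it. In CD8 libraries the values were 9.93 and 15.7 with the drug and 10.7 and 10.4 without it. The lowest Th2 library was the untreated resting one, and the groups did not overlap. The mean was 12033 ± 2317 in Th2 against 11.7 ± 2.73 in CD8 T cells. Only 0.581% of its 50-base words occurred in other genes, so its reads are nearly all its own among the annotated transcripts.

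Nts (chr10:102481760-102490418, minus strand) showed 14779 normalised reads in stimulated and 14667 in resting Th2 cells with actinomycin D, against 11544 and 8747 without it. The CD8 libraries had 5.96 and 3.94 with the drug and 9.48 and 9.33 without it. Pth (chr7:113385576-113388573, minus strand) had 2571 and 2733 normalised reads in stimulated and resting Th2 cells with the drug and 2939 and 1588 without it, where CD8 libraries had 3.97, 1.97, 1.19 and 3.11. For both hormone precursors the untreated resting library was the lowest Th2 library and still exceeded every CD8 library. Means in Th2 against CD8 cells were 12434 ± 2879 against 7.18 ± 2.70 for Nts. For Pth they were 2458 ± 599 against 2.56 ± 1.23.

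Moxd1 (chr10:24223517-24302790, plus strand) had 2377 and 2355 normalised reads in stimulated and resting cells given actinomycin D against 794 and 1053 in untreated cells. Both drug-treated Th2 libraries lay above both untreated ones, as they did for Akr1c18 and Nts. How many of all genes had this order was not counted. CD8 libraries had 8.94 and 0.984 with the drug and 1.19 and 4.15 without it. Adamtsl3 (chr7:82335694-82614450, plus strand) had 7943 and 8131 with the drug and 6111 and 8134 without it in Th2 cells, with the untreated stimulated library lowest, against 5.96, 1.97, 3.56 and 7.26 in the CD8 libraries. The means in Th2 against CD8 cells were 1645 ± 839.6 against 3.81 ± 3.71 for Moxd1. For Adamtsl3 they were 7579.8 ± 983 against 4.69 ± 2.37.

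**Figure D1:**
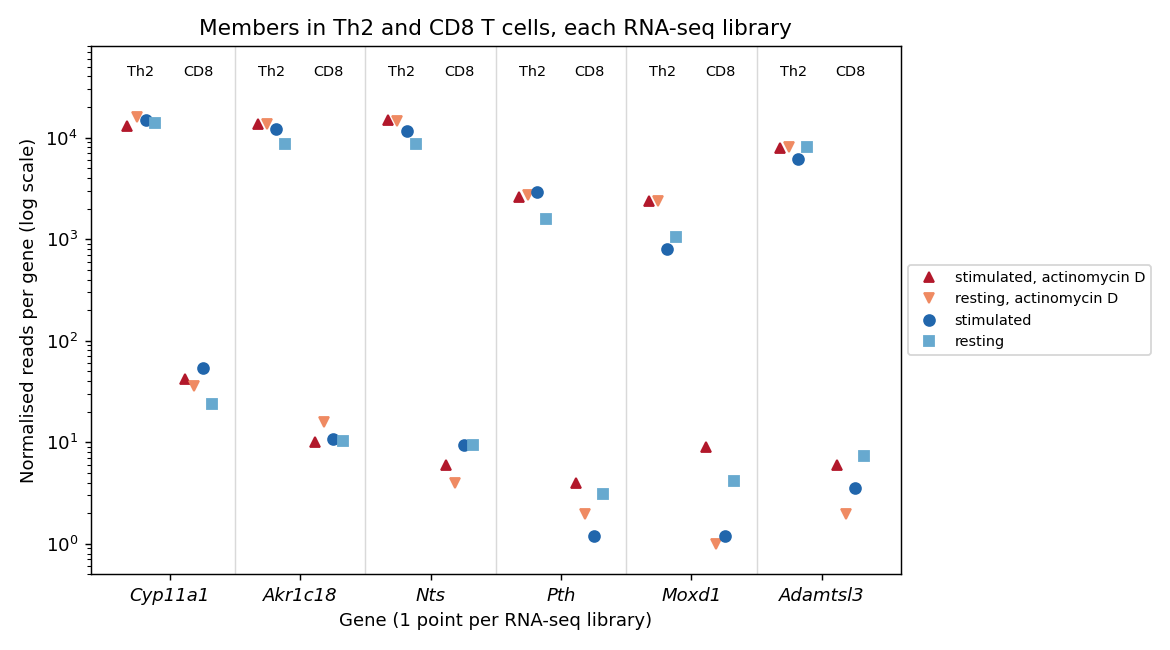
Normalised reads per gene (log axis) for the 6 genes, with the 4 Th2 libraries left and the 4 CD8 libraries right within each gene, 1 point per library. All Th2 points lie between 794 and 15949 and all CD8 points between 0.984 and 53.3.

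The number of reads behind the CD8 values was small. Summed over 4 libraries, CD8 T cells gave 146 reads of Cyp11a1, 45 of Akr1c18, 27 of Nts, 18 of Adamtsl3, 15 of Moxd1 and 10 of Pth. Exact Poisson 95% intervals, which cover counting error only, were 123 to 172 for Cyp11a1 and 4.80 to 18.4 for Pth. The ratio of the Th2 mean to the CD8 mean was 1732 for Nts (counting interval 1191 to 2629), 1618 for Adamtsl3 (1023 to 2730), 1030.2 for Akr1c18 (770 to 1413), 960 for Pth (522 to 2003), 431 for Moxd1 (261 to 771) and 374 for Cyp11a1 (318 to 443). The CD8 level of the members was thus 0.0577 to 0.267% of the Th2 level, where Cd4 in CD8 libraries stood at 0.314% of its Th2 level. That Cd4 mean rests mostly on the untreated stimulated CD8 library, at 281 normalised reads against 25.9 to 33.8 in the other CD8 libraries.

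On the log2(value + 1) scale, averaged over the 4 matched pairs of libraries, the difference was 10.60 ± 0.83 for Nts, 10.48 ± 0.65 for Adamtsl3, 9.89 ± 0.32 for Akr1c18, 9.46 ± 0.81 for Pth, 8.58 ± 1.15 for Moxd1 and 8.56 ± 0.47 for Cyp11a1 (SD). Among the 10995 genes with a Th2 mean of at least 50, these took ranks 1, 2, 3, 4, 8 and 9. The genes between them were Cd4, Ighg1 and Ighe at ranks 5, 6 and 7. This placing describes how the members were chosen. Of all those genes, 9.73% had every Th2 library above every CD8 library and 0.382% had a mean difference of 100-fold or more, and all 6 members did both.

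Divided by the length of the longest coding transcript, levels can be set side by side. Akr1c18 and Nts stood highest in Th2 cells, at 10027 ± 1931 and 9963 ± 2307 normalised reads per kb (SD, n = 4), and did not differ beyond their spread. Cyp11a1 followed with 6807 ± 591, below both in each of the 4 libraries although the ranges touched. Pth had 3462 ± 844, Adamtsl3 1046 ± 136 and Moxd1 532 ± 272 normalised reads per kb, and the ranges of these 3 genes did not overlap with each other or with those above. In the untreated resting library Akr1c18, Nts and Cyp11a1 ranked 116, 124 and 137 of 21144 protein-coding genes by reads per kb. Pth ranked 656, Adamtsl3 1663 and Moxd1 5018.

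Whether these transcripts respond to T cell activation was asked in the 4 Th2 libraries with limma, fitting stimulation and actinomycin D together. Each condition had 1 library, so the 4 h stimulation is judged over 1 pair with and 1 pair without the drug. What the fit leaves over is the difference between these pairs, which limma moderates over all genes. The p-values therefore rest on that difference and on no spread between replicates. A response that differs between the pairs adds to the error. None of the 6 genes was called. The fitted log2 changes with stimulation were 0.40 ± 0.36 for Pth, 0.23 ± 0.30 for Akr1c18, 0.21 ± 0.29 for Nts, -0.09 ± 0.29 for Cyp11a1, -0.20 ± 0.35 for Moxd1 and -0.22 ± 0.30 for Adamtsl3 (SE), each with a limma adjusted p of 1.00 and unadjusted p of 0.297 or more. Over all 10995 genes 7 were called, or 0.0637%, all higher (446 at an unadjusted p under 0.05), so the fit called few genes of any kind. A miss here does not show that a gene did not respond.

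Between single libraries, stimulated over resting, Pth changed by -0.09 on the log2 scale with the drug, and was 1.85-fold higher without it (2939 against 1588 normalised reads). Akr1c18 and Nts differed by 1.01-fold with the drug, and stood 1.38-fold and 1.32-fold higher without it. Moxd1 and Adamtsl3 were lower in stimulated cells without the drug, each by 1.33-fold. No member reached a 2-fold difference in either pair. Among all tested genes 1.69% did so with the drug and 18.7% without it. Of Th2 identity genes in the same fit, 3 of 17 tested rose with stimulation, the cytokines Il24 and Il10 (log2 change 2.89 and 2.71, limma adjusted p = 0.0131 for each) and the growth factor Areg (4.95, limma adjusted p = 0.0430). Their median log2 change was 0.65, against 0.00 over all genes tested.

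Actinomycin D asks which transcripts persist when none are made. Only Moxd1 among the members was called, with higher values with the drug. Its 2 drug-treated libraries (2377 and 2355 normalised reads) both exceeded the 2 untreated ones (794 and 1053), a fitted log2 change of 1.37 ± 0.35 (SE, limma adjusted p = 0.0488). Values are scaled by 1 size factor per library, so a higher value is relative to the other transcripts in the library. The call was at the edge of the threshold. It was kept after quantile normalisation (limma adjusted p = 0.0107), with edgeR (adjusted p = 0.0363) and DESeq2 (adjusted p = 0.0167), at other pseudocounts and with no filter. It was lost at a minimum mean of 10 (limma adjusted p = 0.0526). Scaling libraries to ribosomal protein genes lost it too (log2 change 0.70, limma adjusted p = 0.535). So did fits over all 8 libraries (limma adjusted p = 0.336 with interactions and 0.217 without). The fit without interactions averages Th2 and CD8 changes. Across these settings its adjusted p ran from 0.00784 with no filter to 0.535. Of all genes tested, 0.264% were called higher and 6.00% lower (29 and 660 genes, against 288 and 860 after quantile normalisation).

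The other members were not called in either direction. Fitted log2 changes with the drug were 0.55 ± 0.29 for Nts (limma adjusted p = 0.268), 0.41 ± 0.30 for Akr1c18 (0.407), 0.29 ± 0.36 for Pth (0.635), 0.19 ± 0.30 for Adamtsl3 (0.721) and 0.01 ± 0.29 for Cyp11a1 (0.987). The median over all genes was -0.0019. Scaling to ribosomal protein genes moved that median to -0.67 and turned these 5 estimates negative, from -0.12 for Nts to -0.66 for Cyp11a1, still at or above the moved median.

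In single libraries, actinomycin D over untreated, Moxd1 was 2.99-fold higher in stimulated and 2.23-fold higher in resting Th2 cells. It was the only member past 2-fold. In stimulated cells 11.6% of all genes were at least 2-fold higher and 18.8% at least 2-fold lower, and in resting cells 6.59% and 15.4%. Resting cells with the drug also held 1.72-fold more Pth, 1.68-fold more Nts and 1.57-fold more Akr1c18 than untreated resting cells, while Adamtsl3 was level at 8131 against 8134 normalised reads. No member was 2-fold lower with the drug in either state. In the Th2 identity list, 4 of 17 tested genes fell with the drug (Areg, Ccr8, Il24 and Il10, log2 changes -2.73 to -1.74, limma adjusted p from 0.0168 to 0.0429) and Epas1, a hypoxia-inducible factor, rose (1.20, limma adjusted p = 0.0462). The median of that list was -1.31. The difference between these genes and the members was not tested.

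**Figure D2:**
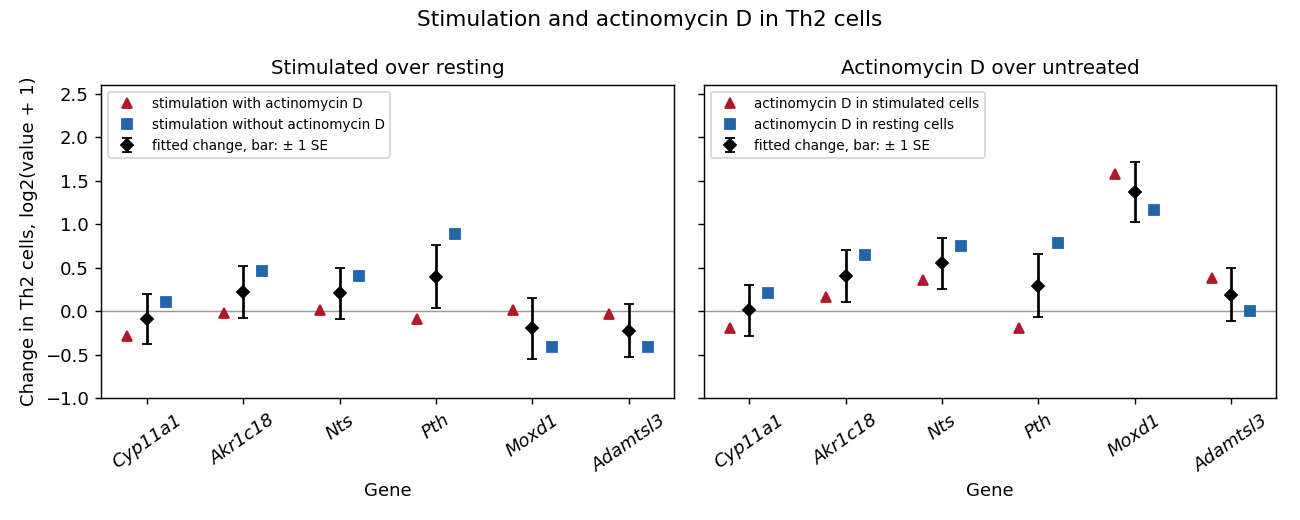
Log2 changes in Th2 cells of stimulated over resting (left panel) and actinomycin D over untreated (right panel) for each gene. Diamonds are fitted changes ± 1 SE, and triangles and squares the single pairs of libraries behind them. Moxd1 with actinomycin D, at 1.37, is the one diamond past the adjusted threshold.

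Around Cyp11a1 the steroid pathway was present only in part. Of 26 genes listed for steroid synthesis, 13 reached the level for testing in Th2 cells, none was called with stimulation or with the drug, and 1 of the 13, Cyp11a1 itself, lay higher in every Th2 than in every CD8 library, while 2 lay lower in every Th2 library. The transport and cholesterol genes with the highest Th2 means were shared by both cell types: the cholesterol carrier Stard4 had 4743 to 6775 normalised reads in Th2 and 5779 to 8615 in CD8 libraries. The cholesterol esterifying enzyme Soat1 had 1897 to 3194 and 1593 to 3127. The lipoprotein receptor gene Scarb1 overlapped as well, with 1797 to 2660 in Th2 against 2030 to 2297 in CD8 libraries. The genes named next were picked after their values were seen. Star itself was low, at 40.8 to 92.0 in Th2 against 94.4 to 129 in CD8 libraries, and the electron carriers Fdx1 (228 to 293 against 313 to 384) and Fdxr (216 to 374 against 245 to 461) were present in both. Hsd3b1, Hsd3b2, Hsd3b3 and Hsd3b6 were at 0 in all 8 libraries, and Cyp17a1, Cyp21a1, Cyp19a1 and Nr5a1, the gland regulator of Cyp11a1, were at 0 to 1.99.

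Of 27 genes listed for steroid conversion, 25 were in the table and 12 were tested, with no call in either contrast. Of the 12, 5 had every Th2 library above every CD8 library (9.73% of all genes tested), and Akr1c18 was one of them. A further 2 had every Th2 library below every CD8 library, Hsd11b1, which regenerates active glucocorticoid, with 79.3 to 139 against 495 to 830.5, and the sulfotransferase gene Sult2b1 with 26.7 to 104 against 322 to 589. Akr1c12 and Akr1c13, neighbours of Akr1c18 in the aldo-keto reductase family, also lay higher in every Th2 library, at lower levels than Akr1c18. Akr1c12 had 383 to 618 normalised reads in Th2 against 5.91 to 16.6 in CD8 libraries, and Akr1c13 had 658 to 1113 against 60.5 to 91.2. These 2 genes were also named after their values were seen, and they share 28.6% and 24.2% of their 50-base words with other genes, mainly each other, so the split between them is uncertain. Of the hydroxysteroid dehydrogenases next highest in the list, Hsd17b7 (4489.7 to 5684 in Th2 against 1365 to 3453 in CD8 libraries) and Hsd17b10 (2938 to 5269 against 1737 to 2816) did not overlap between the cell types. Hsd17b12 (4333 to 8030 against 4375 to 6208) and Hsd17b4 (1639 to 3015 against 1339 to 2019) overlapped. Among 15 steroid receptor and target genes, 11 were tested and 1 was called, Sgk1, a kinase induced by corticosteroids, which fell by 2.84 on the log2 scale with the drug (limma adjusted p = 0.0145). The progesterone receptor gene Pgr was at 0 in all libraries.

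The partners of the peptide hormones were largely missing. Of 11 listed genes, 3 were tested: Nts, Pth and the neurotensin-binding sorting receptor Sort1, which was lower in Th2 (46.4 to 151) than in CD8 libraries (159 to 226). The receptors Ntsr1, Ntsr2, Pth1r and Pth2r had at most 1.97 normalised reads in any library, and Gcm2, which the parathyroid gland needs, at most 7.36 in Th2 and 94.4 in CD8 libraries. Among 19 prohormone processing genes, 6 were tested and none was called. The carboxypeptidase gene Cpd had 7068 to 13224 normalised reads in Th2 against 184 to 541 in CD8 libraries, while 2 of the 6 had every Th2 library below every CD8 library. Furin, a convertase of the secretory pathway, had 735, 1036, 21790 and 1456 in the Th2 libraries (stimulated and resting with the drug, then without it), highest in untreated stimulated cells. Its CD8 libraries held 8498, 8126, 35816 and 8835. The neuroendocrine convertases Pcsk1 and Pcsk2 were at most 13.3 in Th2 and 2.07 in CD8 libraries.

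Of 4 copper monooxygenase genes, Moxd1 and Pam, the enzyme that amidates peptides, were tested, and Moxd1 was the one called. Pam was lower in Th2 (66.8 to 136) than in CD8 libraries (158 to 259.9), and Dbh was at 0 throughout. Of 26 ADAMTS and ADAMTS-like genes, 6 were tested, none was called in either contrast, and 8 were at 0 in all libraries. Beside Adamtsl3, Adamtsl4 had all Th2 libraries above all CD8 libraries, with 1574 to 3999 against 20.7 to 42.7. Adamts14, a procollagen protease, went the other way, with 88.8 to 197 in Th2 and 233 to 933 in CD8 libraries. Adamts10, a protease of the microfibril matrix, was at 1067 to 2501 in Th2 and 1333 to 2064 in CD8 libraries.

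**Figure D3:**
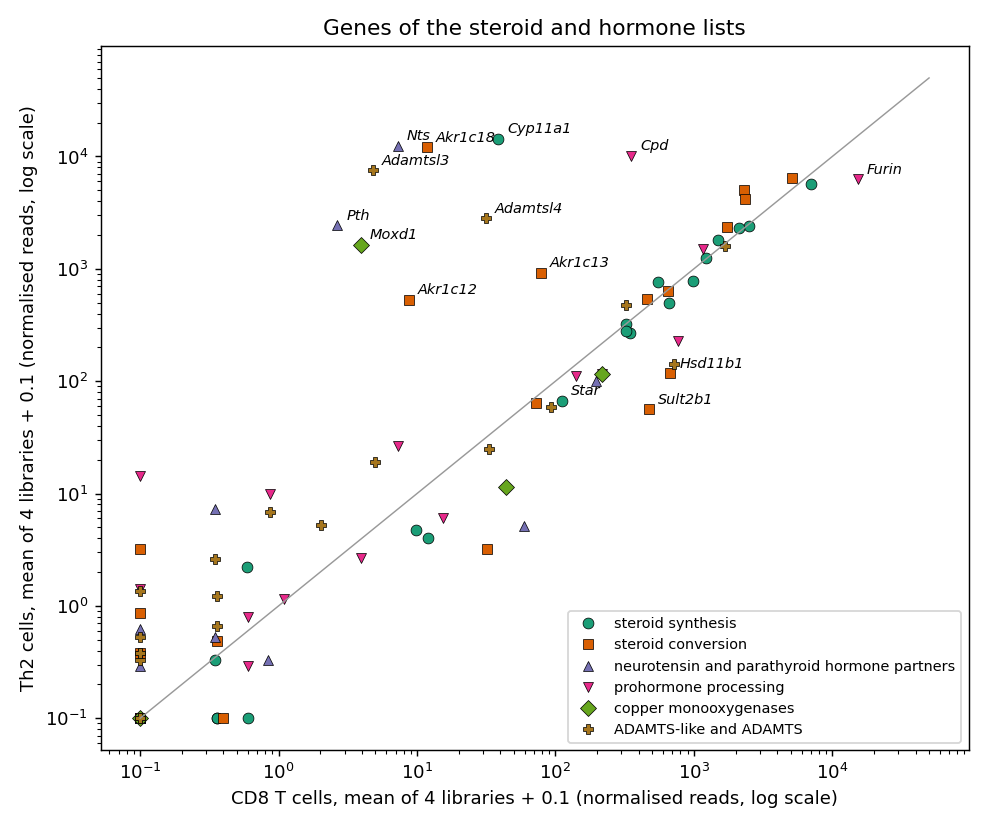
Mean of 4 Th2 libraries against mean of 4 CD8 libraries (both + 0.1, log axes) for genes of the 6 steroid and hormone lists, 1 point per gene, with the line of equal level. The 6 members, with Th2 means of 1645 to 14430.0, stand far above the line together with Cpd, Adamtsl4, Akr1c12 and Akr1c13.

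The genes most like each member over the 8 libraries, by Pearson r of log2(value + 1), had r from 0.991 to 0.999. The 8 points fall into the 2 cell types, so r here mainly reflects that gap and is given as a description. Closest to Cyp11a1 were Pde1a (a phosphodiesterase), Cybb and the MHC class II gene H2-Aa. Akr1c18 was closest to Ighe, Arg1 (arginase) and Ecm1, with Ecm1 at 43295 to 94474 normalised reads in Th2 against 195 to 269 in CD8 libraries. Closest to Nts were an antibody light chain variable gene, Ighe and Iglc2, and to Pth Igkv1-135, Igkc and Igkv10-96. Moxd1 was closest to Igkv1-135, Igkv10-96 and Sugct, and Adamtsl3 to Igkv10-96, Igkv1-135 and Papss2. Immunoglobulin genes were thus among the closest for 5 of the 6 members. Igkc, an antibody light chain, had 3386 to 4533 in Th2 against 81.8 to 129 in CD8 libraries. Beside this, the summed level of the 6 B cell markers was 814 to 955 in Th2 and 145 to 240.4 in CD8 libraries, and the part of B cells in the member levels was not tested.

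GCLiPP asked where proteins sat on these transcripts. The list has 70-base peaks from pooled libraries, each with a score of unstated meaning (13 to 22514, median 24), so no condition can be compared. Of the members 3 had peaks: 5 peaks were named for Adamtsl3, 3 for Cyp11a1 and 2 for Akr1c18, and none for Nts, Pth and Moxd1. Among 5384 protein-coding genes with a mean of at least 1000 in the untreated libraries, 84.2% had a named peak. Nts (mean 5078) and Pth (1133) were above that level and Moxd1 (463) below it.

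The central 30 bases of the best scored peak of each gene, and of the most AU-rich peak, are shown because these are the protein-occupied stretches behind the counts. They are read from GENCODE vM21 transcripts (GRCm38), 5′ to 3′. Capitals would mark ATTTA, the core of AU-rich decay elements, and there are none.
Cyp11a1, score 31, chr9:58026853-58026882: aggctggagtcacatggggaggtggcccat
Akr1c18, score 37, chr13:4132710-4132739: tctcagatgccaataactcgacacaccgcc
Adamtsl3, score 42, chr7:82612744-82612773: tcaacagcaatgtgttgctctcgggacctc
Adamtsl3, score 20, chr7:82614099-82614128: acgattgttggacttattaaattaaaacaa

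In Cyp11a1 the peaks began 19 bases before the last base of the stop codon and 28 and 79 bases after it, and together they ran to base 148 of a 3′ UTR of 171 bases. Their scores were 31, 15 and 23. The Akr1c18 peaks, with scores of 16 and 37, covered the stop codon and reached base 104 of 172. In Adamtsl3 the first peak covered the stop codon, and the others began 226, 955, 1502 and 1581 bases after it in a 3′ UTR of 1952 bases, with scores of 19, 42, 20, 33 and 20 in this order. The highest score, 42, exceeded 76.3% of all peaks and the lowest, 15, exceeded 14.1%. Of the 10 peaks, 4 reached the median score. The peak regions were 44.3 to 72.9% A and U, and none held ATTTA, although ATTTA occurred 5 times in the Adamtsl3 3′ UTR.

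Among the 3′ UTRs without a peak, Nts had 575 bases after the stop codon, Pth 237 and Moxd1 1161, against a median of 1184 over 10278 genes with a Th2 mean of at least 50. Those of Nts and Pth were rich in A and U, at 69.4 and 67.9%, above 97.4 and 96.1% of genes (median 55.6%). ATTTA occurred once in Nts and Moxd1 and 2 times in Pth, and not in Cyp11a1 and Akr1c18, where 71.0% of genes had it.

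**Figure D4:**
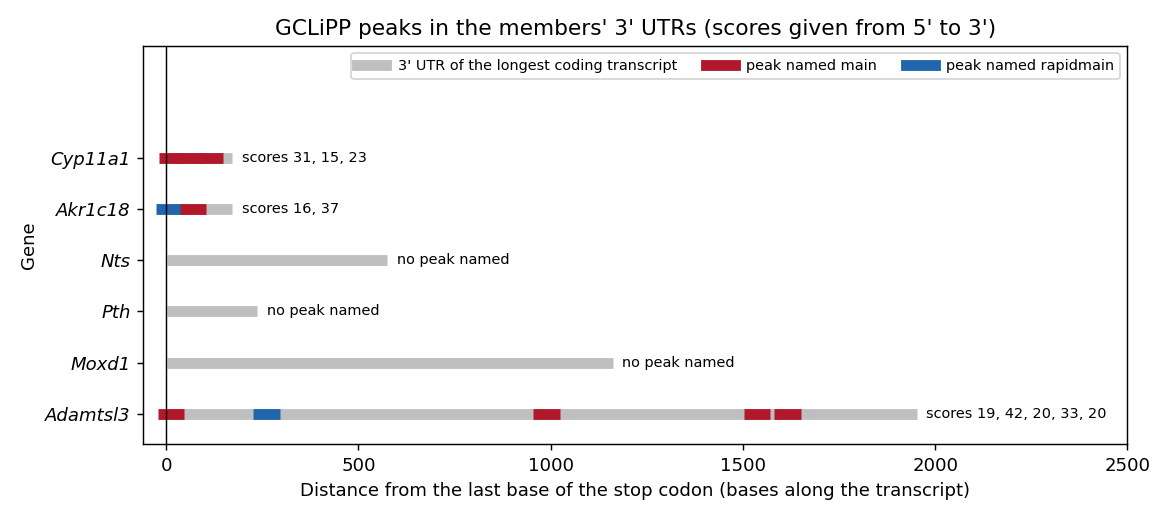
Position of the 70-base GCLiPP peaks along the 3′ UTR (grey) of the longest coding transcript of each gene, in bases from the last base of the stop codon, with the score of each peak. The 10 peaks fall in Cyp11a1, Akr1c18 and Adamtsl3, and the first peak of each of these genes covers the stop codon.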

How the data were processed

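RNA was sequenced from poly(A)-selected RNA of 8 cultures, and 10 GCLiPP libraries gave 1 pooled peak list. The deposited RNA-seq values are a normalised signal: the authors aligned reads to mm10 with STAR, and the table holds gene counts divided by 1 size factor per library, although the methods speak of FPKM. In each library 100% of values were whole multiples of 1 step, to within 0.01 read. The library kit was stranded, but no source used here states the counting tool, its annotation or whether it used strand. The deposited peak score came from the authors' Bowtie2 alignments to mm10, with peaks called in 3′ UTRs. A second table with the same 8 value columns also held the authors' fold changes and was not used.

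Groups came from the labels. limma 3.58.1 with a mean-variance trend was fitted to log2(value + 1), so fold changes of low genes are understated, in 4 Th2 libraries (stimulation and actinomycin D, 1 residual degree of freedom) for 10995 genes with a mean of at least 50, with Benjamini-Hochberg adjustment and calls at 0.05. Fits were tested on simulated data. The simulation gave stimulation the same change with and without the drug, so it did not cover responses that differ between the pairs. edgeR 4.0.16 (quasi-likelihood) and DESeq2 1.42.0 on the recovered reads, other pseudocounts, filters, scalings and sample sets were alternatives. Members and lists were chosen with earlier results of these data known. Text names the 6 members, listed genes that passed or had the highest Th2 means, the 3 nearest patterns per member, and exceptions where stated. Hsd17b8, Sts and Adgre1 were not matched and are not analysed here. Some listed genes are not reported here.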

Additional observations from a re-analysis of the deposited data

Results flagged for a closer look

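In 4 members the change with stimulation in Th2 cells had opposite signs with and without actinomycin D, at 1 library a side. The difference between the pairs was not tested. How many of all genes had opposite signs was not counted, so this is not a trait of the members. Cyp11a1 changed by -0.29 on the log2 scale with the drug and by 0.11 without it. Akr1c18 changed by -0.014 with the drug and 0.47 without it, and Pth by -0.088 with the drug and 0.89 without it. Moxd1 changed by 0.013 with the drug and -0.41 without it. Values with the drug lay close to 0 for Akr1c18, Pth and Moxd1, where 1.69% of all genes tested differed by 2-fold or more. No condition had the 4 libraries needed to look for a single library far from the others.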

How the results depend on the processing

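The 7 genes called with stimulation became 143 with no filter, 53 after quantile normalisation, 41 with ribosomal protein scaling, 13 in an additive fit of 8 libraries, 22 with edgeR (553 at an unadjusted p under 0.05) and 44 with DESeq2. An 8-library limma fit with interactions called 0 (563 at an unadjusted p under 0.05), and leaving out each Th2 library in it gave 0 to 0 (122 to 1445 at an unadjusted p under 0.05). No member was called with stimulation under any of the 14 alternatives. The additive fit gave the opposite sign for Cyp11a1 (0.29), Akr1c18 (-0.031) and Moxd1 (0.17). It averages the changes in Th2 and CD8 cells, and the members had few CD8 reads, so these are not Th2 changes. With a Th2 library left out, the Th2 change rests on the 1 remaining pair. These fits therefore repeated the single-pair changes and are no separate check. They gave -0.29 and 0.11 for Cyp11a1, -0.014 and 0.47 for Akr1c18, -0.088 and 0.89 for Pth and -0.41 and 0.013 for Moxd1.

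The 689 genes called with actinomycin D became 1841 with no filter, 1148 after quantile normalisation, 1588 with ribosomal protein scaling, 502 and 5044 in the 8-library fits with interactions and additive, 1133 with edgeR and 1329 with DESeq2, and 0 to 0 by limma with a library left out (2165 to 3079 at an unadjusted p under 0.05). Directions turned for Cyp11a1 (-0.075 after quantile normalisation, -0.013 with edgeR, -0.021 with DESeq2). They turned with ribosomal protein scaling for Cyp11a1 (-0.66), Akr1c18 (-0.26), Nts (-0.12), Pth (-0.38) and Adamtsl3 (-0.48), where the all-gene median itself moved to -0.67. The additive fit, which averages Th2 and CD8 changes, gave the opposite sign for Nts (-0.14) and Adamtsl3 (-0.12). With a library left out the fits again repeated the single-pair changes. These were -0.19 and 0.21 for Cyp11a1, -0.19 and 0.78 for Pth, -0.00067 and 0.38 for Adamtsl3 and 1.16 and 1.58 for Moxd1. The Moxd1 call was lost with a mean of at least 10 (1.37), ribosomal protein scaling (0.70) and the 8-library fits (1.37 and 0.89). The cause was not tested.

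The median member difference between Th2 and CD8 cells, 9.68 on the log2 scale, was 8.63 at a pseudocount of 10 and 9.50 to 9.87 with a pair left out. The 10 member peaks were 4 at or above the median score. No paired analysis was possible because the RNA-seq labels carry no replicate numbers and the peak list has no values per library, and the pairs used here are libraries matched by condition, not by replicate. With 1 library per condition, counts of 10 to 146 reads in CD8 T cells limit the ratios.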

Other observations

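Of 15 endocrine gland genes listed, Tg, the precursor of thyroid hormone, was the one with high values in Th2 cells, at 6697 to 10681 normalised reads against 802 to 1472 in CD8 libraries. Tg overlaps Sla, a T cell adaptor gene on the opposite strand, which had 1332 to 35075 in Th2 and 1319 to 15451 in CD8 libraries. The library kit was stranded, but no source used here states whether strand was used in counting, so the origin of the Tg reads is uncertain.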
